A study of Mus musculus with 15 samples.

Results

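The transcription factor AP-1 and the immediate early genes around it were examined for p53-bound regions in 3 mouse organs. The group was 10 genes: Fos, Fosb, Fosl2, Jun, Junb, Jund, Egr1, Atf3, Ier2 and Nfkbia. Its regions were all those of the 3 deposited organ lists that lay inside one of these genes or within 20 kb of it, measured between the nearest edges. By this rule the group held 8 of the 4137 distinct regions of the series. They lay at 4 of the 10 genes, namely Fos, Fosb, Jund and Nfkbia, and 6 genes had none: Fosl2, Jun, Junb, Egr1, Atf3 and Ier2.

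The study mapped p53, the transcription factor encoded by Trp53, by chromatin immunoprecipitation sequencing (ChIP-seq), which sequences the DNA fragments pulled down with a protein. Its 15 libraries came from 3 organs of wild-type mice (liver, spleen and thymus). Each organ had 2 libraries from untreated control mice, 2 from mice given X-rays (2 Gy, organs taken at 3 h) and 1 input library of chromatin without the antibody step. The labels used here do not state the age, sex or strain of the mice or the antibody. The authors deposited 1 region list per organ, of 3872 (liver), 2604 (spleen) and 2405 (thymus) regions. The labels tie each list to all 5 libraries of its organ, but the lists carry irradiation and IgG (a nonspecific control antibody) in their names, and no library is labelled IgG. They may therefore be regions of irradiated organs only, and which libraries they were called from is not known. With 1 list per organ, radiation could not be compared with no treatment, and there are no replicates and no spread. The read depth is unknown, and a missing region means only that none was listed. The lists were made from whole organs, so a site bound in few cells and a site bound weakly in many cannot be told apart. They hold no expression values, and the organ labels were not checked against cell type markers. The 3 lists draw on a common set of regions with identical bounds.

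AP-1 is a dimer of basic leucine zipper proteins. Proteins of the Jun family (Jun, Junb, Jund) pair with each other or with proteins of the Fos family (in this group Fos, Fosb and Fosl2), which need a Jun partner to bind DNA. Most of these genes, with Egr1, Atf3 and Ier2, are switched on within minutes of growth factors or stress, ionizing radiation included, without new protein synthesis, whereas Jund is expressed more steadily. Nfkbia encodes the inhibitor that holds NF-kB in the cytoplasm, and is itself induced by NF-kB. p53 binds DNA as a tetramer whose preferred site is a pair of short decamer elements.

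None of the 8 regions overlapped the promoter window of its gene in the RefSeq table (250 bp before to 50 bp after the gene start, build GRCm38.p6, the assembly named mm10). The region at Fosb came closest, 5 bp outside the window. Only the start in that table was used for each gene, whereas RefSeq lists 3 transcripts for Fosb and 2 for Jund. Windows at any other start were not checked. The bases before the start of the 4 genes with a region are shown because these regions lie around them, and that of Btg2, a growth arrest gene that is both an immediate early gene and a known p53 target, because a region covers it. Each runs in the direction of transcription and ends where the annotated gene begins. Capitals mark a match to one of the motifs searched. The stretches are Fos at chr12:85473640-85473889 (plus strand), Fosb at chr7:19310119-19310295 (minus strand), Jund at chr8:70697489-70697738 (plus strand), Nfkbia at chr12:55492648-55492897 (minus strand) and Btg2 at chr1:134079156-134079405 (minus strand).
Fos: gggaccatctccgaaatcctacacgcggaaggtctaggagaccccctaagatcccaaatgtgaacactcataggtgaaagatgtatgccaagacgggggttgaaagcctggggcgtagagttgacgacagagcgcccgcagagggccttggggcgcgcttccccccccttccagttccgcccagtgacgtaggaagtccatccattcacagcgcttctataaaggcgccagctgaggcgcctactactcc
Fosb: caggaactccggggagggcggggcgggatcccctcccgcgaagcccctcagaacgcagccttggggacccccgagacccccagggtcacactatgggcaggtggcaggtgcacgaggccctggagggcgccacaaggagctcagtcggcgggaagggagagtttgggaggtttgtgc
Jund: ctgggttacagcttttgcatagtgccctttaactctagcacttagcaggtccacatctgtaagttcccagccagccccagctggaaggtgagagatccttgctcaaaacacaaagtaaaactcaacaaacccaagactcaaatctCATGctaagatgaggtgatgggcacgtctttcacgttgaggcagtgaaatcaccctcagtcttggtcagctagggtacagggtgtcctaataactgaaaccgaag
Nfkbia: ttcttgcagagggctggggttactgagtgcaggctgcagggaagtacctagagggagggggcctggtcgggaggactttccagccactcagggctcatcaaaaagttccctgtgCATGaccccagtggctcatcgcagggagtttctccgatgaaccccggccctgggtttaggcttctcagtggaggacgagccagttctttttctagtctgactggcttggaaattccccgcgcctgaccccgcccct
Btg2: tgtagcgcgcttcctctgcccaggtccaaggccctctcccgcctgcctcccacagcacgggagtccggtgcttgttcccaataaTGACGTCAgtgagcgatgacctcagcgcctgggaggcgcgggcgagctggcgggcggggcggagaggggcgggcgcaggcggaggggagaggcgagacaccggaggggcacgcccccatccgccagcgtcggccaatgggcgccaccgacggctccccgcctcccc

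Of the 10 genes, 8 had a promoter window, all but Egr1 and Ier2. Their 250 bp before the start were searched on both strands for 5 motifs. Sites farther upstream, and the promoters of Egr1 and Ier2, were therefore not searched. The core CATG, which p53 elements often carry, was found in 4 of the 8 (Fosb, Jun, Jund and Nfkbia), and in 53.9% of all 32851 windows of that length. It began 105 bp before the start of Jund, 136 bp before that of Nfkbia and 74 bp before that of Fosb, where it straddles the outer edge of the annotated gene, so that only its first base is in the stretch shown and it is not in capitals. The full decamer element of p53 was in 0 of the 8 against 7.13% of all windows. The AP-1 site TGANTCA was in 0 of the 8 (6.75% of all windows), the cyclic AMP response element TGACGTCA in 0 (1.55%) and the CArG box, the site of serum response factor, in 0 (1.47%). With only 8 windows, 0 is near each of these shares and does not set the genes apart. The searched bases do not include the regions themselves. The Btg2 stretch held TGACGTCA from 166 to 159 bp before the start. It held neither the p53 decamer nor CATG. The region that covers this stretch, chr1:134079001-134079650, also runs past it on both sides, and those bases were not searched. These matches describe letters in a window and are not binding sites.

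In the full lists, liver was the organ list with the most of these genes. A region of any list lay within 20 kb of 4 of the 10 genes, against 23.0% of all 21887 protein-coding genes. A liver region lay within 20 kb of 4 of the 10 genes, a spleen region within 20 kb of 1 (Fos) and a thymus region within 20 kb of 2 (Fos and Jund). Among all coding genes the same rule was met by 22.3% (liver), 12.8% (spleen) and 11.6% (thymus), and among the 10076 coding genes no shorter than Ier2 and no longer than Fosl2 by 21.9%, 11.1% and 9.74%. With 10 genes, 1 gene is 10% of the group, so the spleen and thymus counts are each within about 1 gene of the background. The liver count was above the background by about 2 genes and was not tested, since the genes were chosen with earlier results of these data known. The liver list is also the longest. With each list shortened to its 2405 highest scores, liver regions were left at 2 genes, Fos and Jund, with 2 each. Thymus regions then also lay at 2 genes and spleen regions at 1, so liver no longer had more genes than thymus. The share of all coding genes was not computed for the shortened lists.

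With a window of 50 kb in place of 20 kb, 8 of the 10 genes had a liver region (33.4% of coding genes), 6 a spleen region (20.9%), 6 a thymus region (19.2%) and 6 regions of all 3 lists (15.8%). The regions added lay inside or nearer other coding genes.

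**Figure D1:**
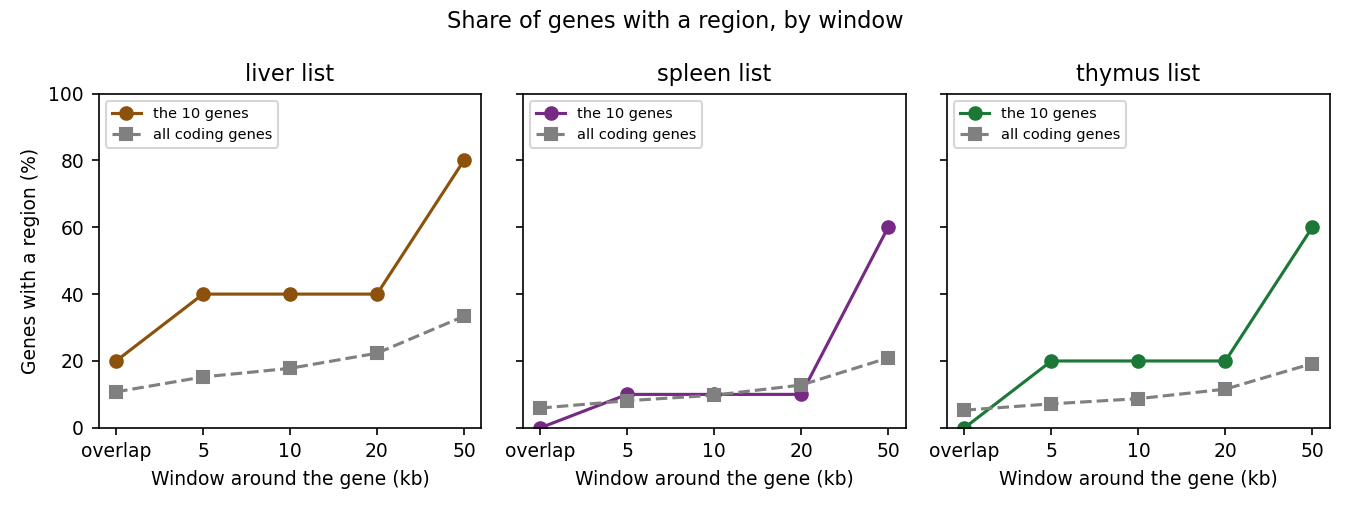
Share of genes with a region (y axis, %) against the window around the gene (x axis, from overlap with the gene to 50 kb), in 1 panel per organ list, for the 10 AP-1 and immediate early genes (solid, circles) and all coding genes (dashed, squares). In liver the 10 genes stand at 40% from 5 to 20 kb against 15.2 to 22.3% of all coding genes, and in spleen they lie within 3 percentage points of the background over the same windows. In thymus they stand at 20%, which is 2 genes, against 7.17 to 11.6%.

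Most of the regions at these genes were in the liver list alone. All 8 were in the liver list, as were 93.6% of all distinct regions, so this does not set the group apart. Of the 8, 6 were in no other list (75%, against 30.3% of all distinct regions). A further region, at Jund, was in liver and thymus, and 1 region, at Fos, was in all 3 lists (12.5%, against 46.7% of all regions). At the level of genes, Fosb and Nfkbia had a liver region and none of spleen or thymus, which held for 8.28% of coding genes. Fos was the only one of the 10 with all 3 lists within 20 kb, which held for 9.18% of coding genes. Regions of 1 gene share a locus and are not independent of each other.

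**Figure D2:**
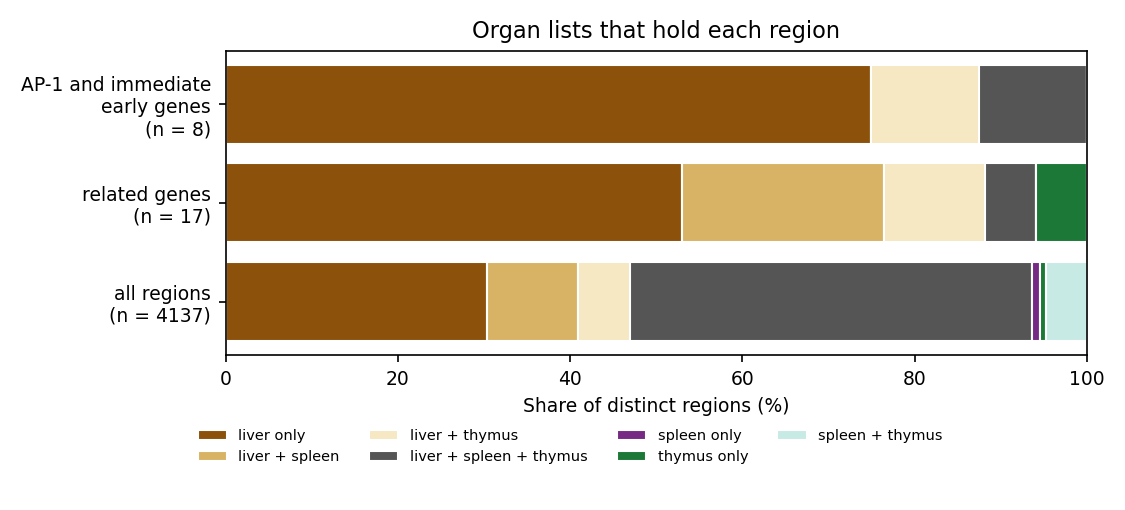
Stacked bars of the share of distinct regions (x axis, %) by the organ lists that hold them, for the 8 regions of the 10 genes, the 17 regions of 52 related genes and all 4137 regions. Regions in the liver list alone take 75% of the first bar, 52.9% of the second and 30.3% of the third.

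Scores at these genes were low within the lists. The score is the authors' own value per region on a scale that is not given, so it is used here as a percentile, the share of a list's regions that score no higher, with ties averaged. A percentile is a place within 1 list, and the lists differ in length. Unlike percentiles in 2 lists are therefore not read as a change in binding. Of the 8 regions, 1 lay in the upper 50% of the liver list and 7 below it. Their liver percentiles ran from 4.05 to 93.8 with a median of 32.7. The 6 in liver alone ran from 4.05 to 41.0 with a median of 21.4, whereas the 1255 regions of liver alone in the whole series had a median of 48.4. The 1 spleen value and the 2 thymus values were all under 22. A low liver median was not particular to this group. The 16 liver regions of the related genes described below had a median of 23.9, with 5 in the upper 50%. Their 5 spleen and 4 thymus regions had medians of 39.8 and 45.0, above the values of this group in those lists. As a scale, Cdkn1a, the cell cycle inhibitor gene that p53 is best known to activate, had its highest liver region within 20 kb at percentiles of 99.6 (liver), 91.8 (spleen) and 93.4 (thymus). Widths ran from 50 to 450 bp, and 4 of the 8 regions were 50 bp wide, the narrowest width in each list (26.3% of all regions).

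**Figure D3:**
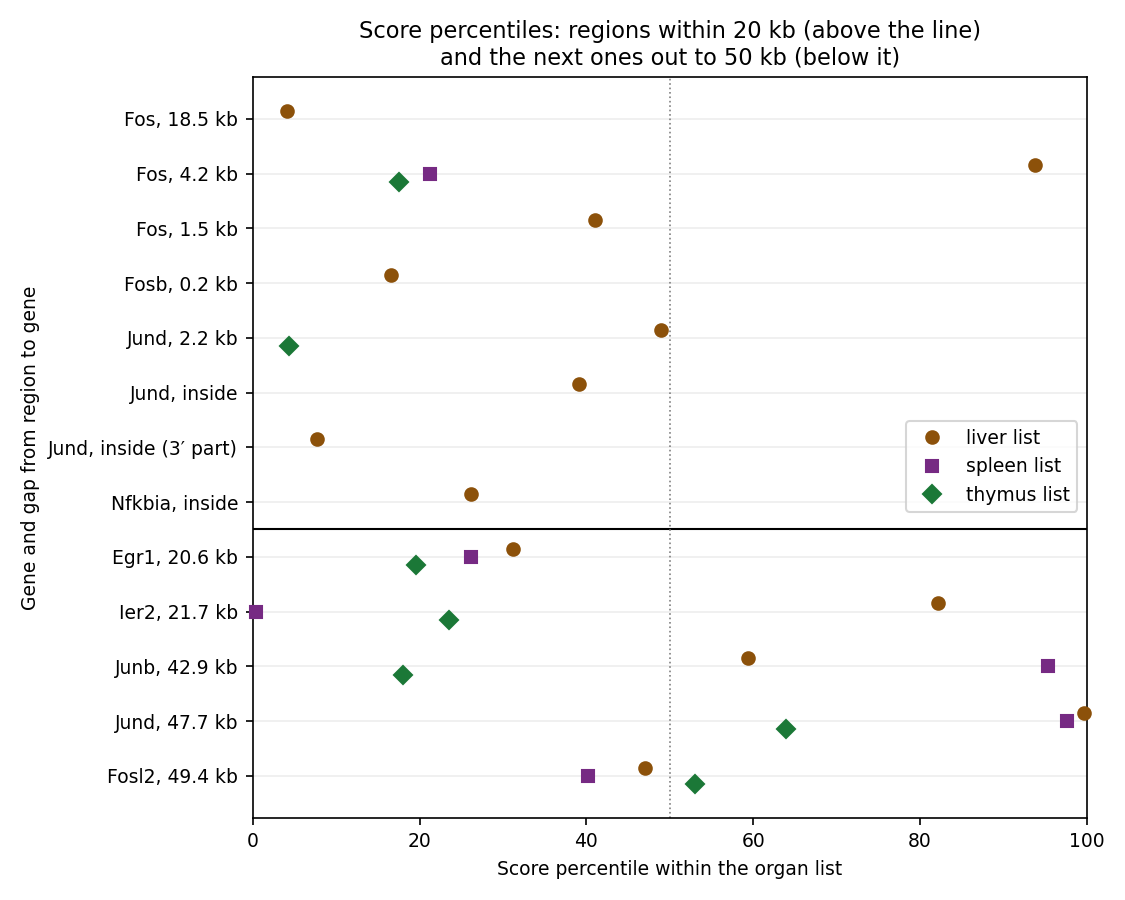
Score percentile within the organ list (x axis) of each region, named on the y axis by its gene and the gap between region and gene, with circles for liver, squares for spleen and diamonds for thymus. Above the line are the 8 regions within 20 kb, of which only 1 liver value (93.8, at Fos) passes 50. Below it are the next regions out to 50 kb, all of which are in all 3 lists, as are 46.7% of all distinct regions.

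Fos, the founding member of its family, had 3 regions, all upstream of the gene on chromosome 12 (gene 85473890 to 85477274, plus strand). The middle one, chr12:85469501-85469650, lay 4239 bp upstream and was placed 237 of 3872 in liver (percentile 93.8), 2052 of 2604 in spleen (21.2) and 1985 of 2405 in thymus (17.5). It is the highest-ranked liver region of the group and the only one that all 3 lists hold, and it lay low in both lymphoid lists. A 50 bp region nearer the gene, chr12:85472301-85472350, 1539 bp upstream, ranked at 41.0 in liver and was in no other list. The third, chr12:85455301-85455350, lay 18539 bp upstream, close to the 20 kb limit, inside the lncRNA gene Gm38543, and ranked at 4.05 in liver alone. Fos was the nearest coding gene to all 3, and no other coding gene lay within 20 kb of them. From the first to the last they spanned 17050 bp.

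Fosb, whose product pairs with Jun proteins as Fos does, had 1 region (gene on chromosome 7, 19302696 to 19310118, minus strand). It lay at chr7:19310301-19310450, 182 bp upstream of the outer edge of the gene, and its midpoint was 330 bp upstream of the start in the promoter table. The region was in the liver list alone, at the 16.6 percentile (place 3230 of 3872). It sits just beyond the Fosb stretch shown above. The only other coding gene within 20 kb was Rtn2, a reticulon gene, 14136 bp away. The nearest spleen and thymus regions to Fosb were 552145 bp off. Fosl2, the third Fos family gene of the group (chromosome 5, 32136472 to 32157840), had no region. The nearest in each list was the same one, chr5:32086801-32087050, 49421 bp away and 1850 bp from Babam2, at percentiles of 47.0 (liver), 40.2 (spleen) and 52.97 (thymus).

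Of the Jun family, only Jund had regions, and it had 3 within 4550 bp (gene on chromosome 8, 70697739 to 70700616, plus strand). The widest, chr8:70698701-70699150, was 450 bp long with its midpoint 1186 bp past the gene start, and ranked at 39.2 in liver alone. A 50 bp region, chr8:70700001-70700050, lay in the last kilobase of the gene and ranked at 7.67 in liver alone. The third, chr8:70695501-70695550, lay 2188 bp upstream and ranked at 48.9 in liver and 4.28 in thymus (place 2303 of 2405). All 3 thus fell below the middle of each list that held them. RefSeq lists 2 transcripts for Jund and the start of 1 was used, so the place of these regions relative to the other start is not given. Coding genes also within 20 kb of 1 or more of them were Iqcn, 1270 bp from the last, Lsm4, a gene of RNA processing, and Gm3336, but Jund was the nearest coding gene to each.

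Jun and Junb had no region within 20 kb in any list. The nearest liver region to Jun (chromosome 4, 95049036 to 95052222) was 109078 bp away and the nearest in spleen and thymus 201878 bp. Junb (chromosome 8, 84976909 to 84978748) had a region of all 3 lists 42852 bp away, chr8:85021601-85021750, inside Get3, at percentiles of 59.4 (liver), 95.4 (spleen) and 18.0 (thymus). The Jun family thus had 1 of 3 genes with a region in reach, and the Fos family genes of the group 2 of 3. Fosl1, a further Fos family gene, is among the related genes described below and had no region. These are too few genes for a comparison.

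**Figure D4:**
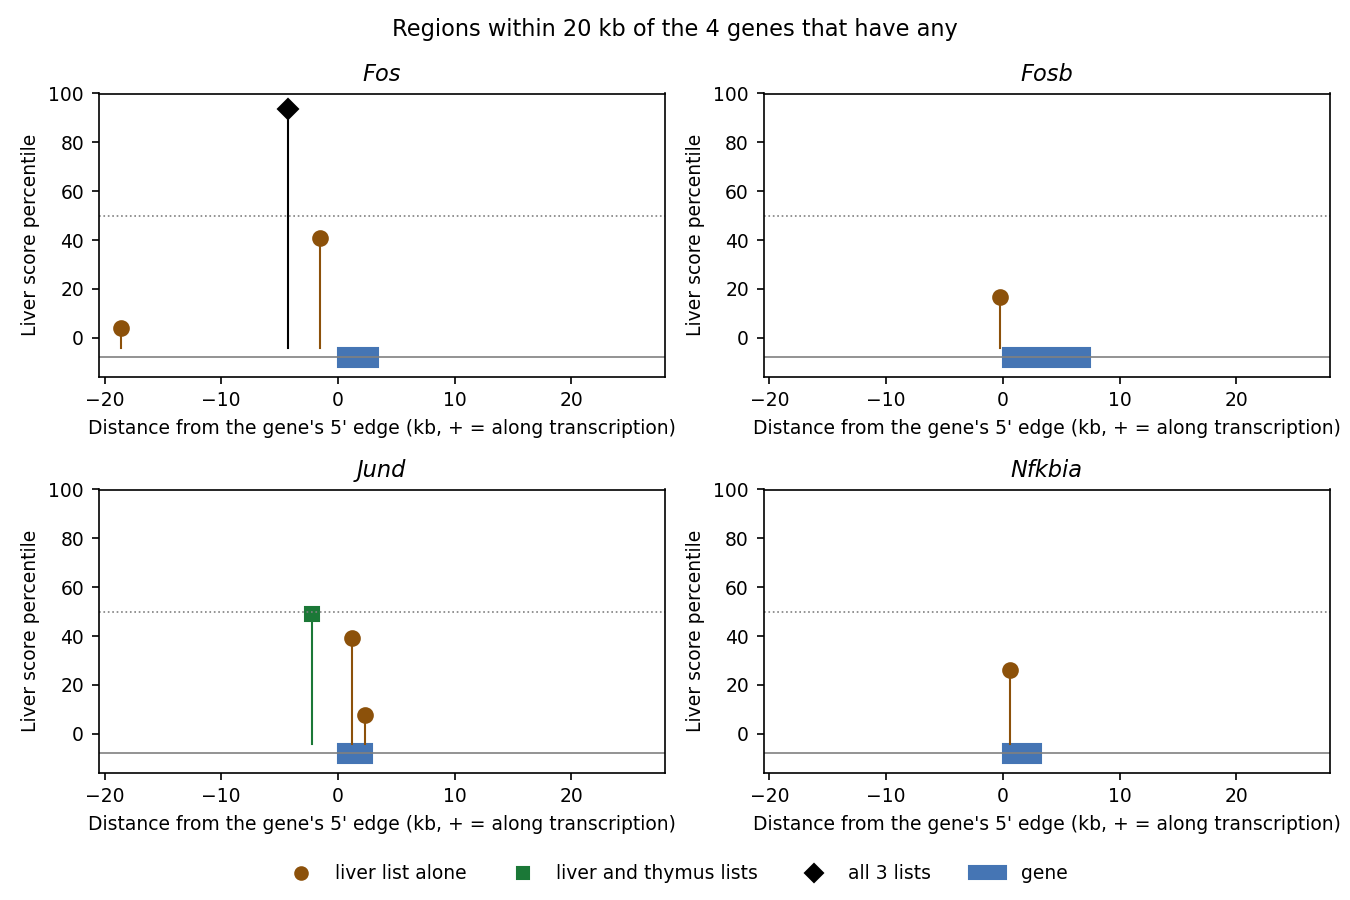
Position of each region (x axis, distance of its midpoint from the edge of the gene where transcription begins, in kb, positive along transcription) and its liver score percentile (y axis) at Fos, Fosb, Jund and Nfkbia, with the gene as a bar and the marker shape giving the lists that hold the region. The 3 regions at Fos and the 1 at Fosb are upstream, Jund has 1 upstream and 2 inside the gene, and Nfkbia has 1 inside.

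Nfkbia, which encodes the inhibitor IkB alpha, had 1 region inside the gene (gene on chromosome 12, 55489409 to 55492647, minus strand). The region, chr12:55492001-55492150, had its midpoint 572 bp past the gene start and ranked at 26.1 in liver (place 2861 of 3872), with none in the other lists. No other coding gene lay within 20 kb. Nfkbia and Jund were the 2 of the 10 genes that a liver region overlapped, which held for 10.8% of coding genes. The nearest spleen region to Nfkbia lay 90658 bp away and the nearest thymus region 1125758 bp.

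The remaining immediate early genes had no region in reach. The zinc finger factor gene Egr1 (chromosome 18, 34861207 to 34864956) and Ier2, which encodes a small nuclear protein of the early response (chromosome 8, 84661331 to 84662852), missed the limit narrowly. The region next to Egr1 lay 20556 bp away inside Reep2, was in all 3 lists and its percentiles were 31.3 (liver), 26.2 (spleen) and 19.6 (thymus). That next to Ier2 lay 21680 bp away inside the calcium channel gene Cacna1a, also in all 3 lists, with percentiles of 82.2 (liver), 0.326 (spleen) and 23.6 (thymus). Just inside the limit was the Fos region at 18539 bp with a liver percentile of 4.05. Atf3, a stress-induced relative of the AP-1 proteins that is often described as a p53 target (chromosome 1, 191170296 to 191183333), was the farthest of the 10 from a region of any list, with the nearest, a liver region, 142467 bp away. Its nearest spleen and thymus regions lay 258267 and 241745 bp away, closer than those of Fosb in both lists and of Nfkbia in thymus.

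**Figure D5:**
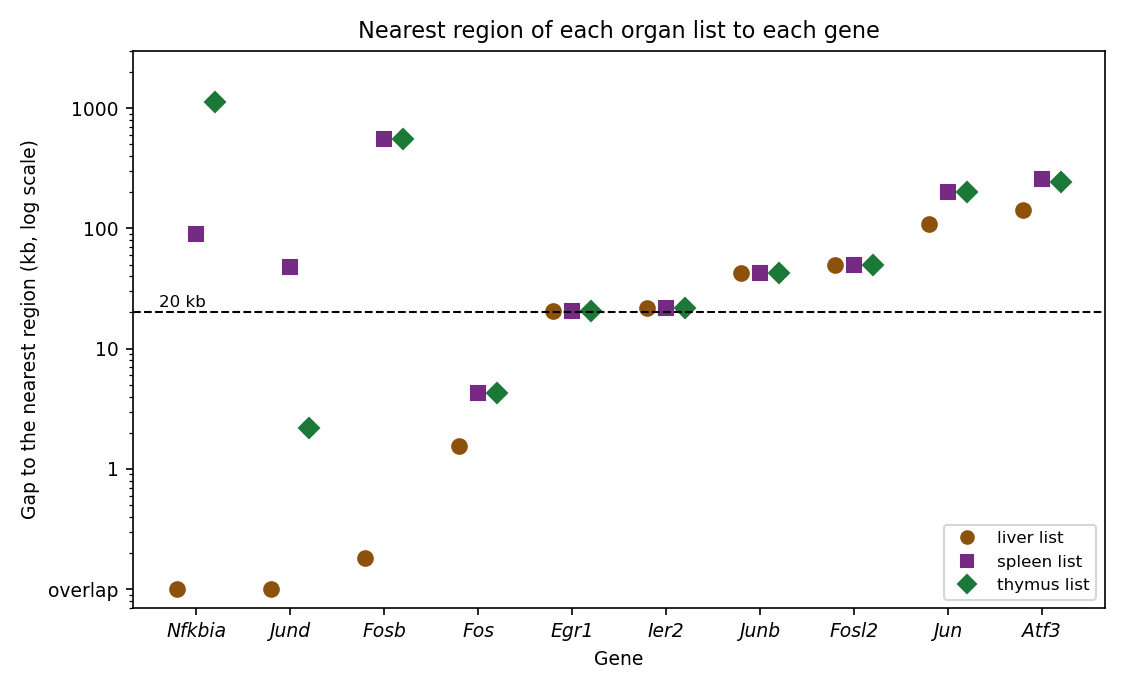
Gap from each gene to the nearest region of each organ list (y axis, kb, log scale, with regions that overlap the gene drawn at the lowest mark), for liver (circles), spleen (squares) and thymus (diamonds), genes ordered by the liver gap. Liver gaps run from overlap at Nfkbia and Jund to 142467 bp at Atf3, and Egr1 and Ier2 sit just above the dashed 20 kb line in all 3 lists.

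By place, 3 of the 8 regions had their midpoint within 1 kb of an end of an annotated gene (those of Fosb and Nfkbia and the last of Jund), 2 lay inside a gene away from its ends and 3 lay outside genes. Of all distinct regions, 45.2% were at a gene end, 30.6% inside a gene away from its ends and 24.2% outside genes. With only 8 regions, these counts do not set the group apart. All 3 regions at gene ends were in liver alone, so 3 of the 6 liver-alone regions of the group lay at a gene end, against 80.9% of the 1255 in the series. Exons, introns and untranslated regions could not be told apart with the gene bounds used here. Fos and Jund each had 3 distinct regions within 20 kb, a count reached by 0.649% of coding genes. This was noticed after the values were seen and was not tested. Within these clusters the gaps were 14150 and 2650 bp at Fos and 3150 and 850 bp at Jund.

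A wider list of 52 related genes was read in the same way. It was a selection of other AP-1, Maf and ATF factors, immediate early genes and NF-kB factors and inhibitors, and does not hold every gene of these families. A region within 20 kb was found for 13 of the 52 in the liver list (25%, against 22.3% of coding genes), for 5 in the spleen list (9.62%, against 12.8%) and for 4 in the thymus list (7.69%, against 11.6%). The other 39 had none in any list. Of their 17 regions, 9 were in liver alone and 1, at Btg2, was in all 3 lists. The Btg2 region, chr1:134079001-134079650, crosses the gene edge and had percentiles of 99.1 (liver), 39.8 (spleen) and 48.9 (thymus). It is the only one of the 17 within the top 10% of any list.

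Among these related genes the percentiles varied widely. The median liver percentile of their regions, 23.9, was below that of the main group, 32.7. Mafg, a small Maf protein gene, held a region at 84.9 in liver and 41.2 in thymus. Rela, the p65 subunit of NF-kB, had 2 regions in liver alone, at 55.0 inside the gene and 68.9 downstream of it. The liver-alone region near Atf7 ranked at 75.3, but lay 7595 bp from it and nearer another coding gene. The region near Mafk (44.9 in liver, 57.5 in spleen) was also nearer another gene. Sik1, a kinase gene induced by cyclic AMP, had a region 10197 bp away at 78.8 in spleen and 2.25 in liver. Zfp36l1, an mRNA decay factor gene, held a region in thymus alone (60.1) and had another in liver alone 287 bp upstream (9.81), nearer another coding gene. Per1 (35.5) and the orphan receptor gene Nr4a3 (12.3) had 1 region each in liver alone, and Egr3 had 1 at 1.37 in liver and 28.5 in spleen, 19266 bp away and nearer another coding gene. Of the 10 genes of the main group, Fos had a liver percentile (93.8) between those of Btg2 and Mafg.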

How the data were processed

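The data were 3 deposited BED lists of p53 ChIP-seq regions, 1 per organ, with a score per region. The deposited score has no scale, normalization, caller or aligner given in the sources used here, and whether the authors pooled or subtracted libraries is not given either. Build mm10 is from the submitters' processing notes. Coordinates are 1-based.

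Gene bounds and promoter sequences came from RefSeq tables of GRCm38.p6, with 49943 genes, 21887 of them protein-coding; all 10 members and all 52 related genes matched by symbol, and 8 of the 10 had a promoter window. Gaps count bases between the nearest edges of region and gene. Scores were turned into percentiles and ranks within a list. Counts of genes were set beside the share of all coding genes that met the same rule. No p-value was computed, since each organ has 1 list and the members and lists were chosen with earlier results of these data known.

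All 10 members were described with every region within 20 kb. Of the related genes, the 10 with the highest mean percentile of their best regions were named, as was any with a region across or inside the gene in all 3 lists (Btg2). The planned motif search of the regions themselves was not run, as no genome sequence was used here. The assignment of regions to genes was tested on simulated data. Python 3.11.15 with pandas 2.3.3, NumPy 2.4.6 and matplotlib 3.10.9 was used.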

Additional observations from a re-analysis of the deposited data

How the results depend on the processing

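With 1 list per organ and unknown depth, no result has a replicate error. No paired analysis was possible because the lists are 1 per organ and carry no replicate number. Of 81 recounts, 44 stayed within 1.5 times the value reported, including all 10 with distances from the region midpoint. Below, values are for liver, spleen and thymus in that order where 3 are given. Windows of 5 and 10 kb left the number of the 10 genes with a region as it was in each list and lowered their liver regions from 8 to 7, and gave 7 and 8 related genes in liver and 2 in spleen under both. Of all coding genes, 15.2%, 8.11% and 7.17% had a region within 5 kb, and 17.8%, 9.77% and 8.73% within 10 kb. With 50 kb, 8, 6 and 6 of the 10 genes had a region (13, 6 and 7 distinct regions), 6 genes had all 3 lists, and related genes numbered 10 in spleen and 10 in thymus. With overlap of the gene required, 2, 0 and 0 of the 10 genes (3, 0 and 0 regions) and 3 and 1 related genes in liver and spleen were counted, and 0 genes had all 3 lists. Such overlap held for 10.8%, 5.91% and 5.29% of coding genes, so 0 of 10 in spleen and thymus is near the background. The upper 50% of each list by score held 1, 0 and 0 genes (1, 0 and 0 regions), 4, 2 and 1 related genes, and 0 genes with all 3 lists. With lists of equal length, liver counts were 2 genes, 4 regions and 5 related genes. For neither of these settings, the upper 50% or equal length, was the share of all coding genes counted. With each region given to its nearest coding gene only, 7 related genes were counted in liver and 3 in spleen, while the counts of the 10 genes stayed the same. Treating ties differently moved none of the 11 percentiles beyond its binomial interval. That interval depends only on the percentile and the list length, so it is a yardstick and measures no replicate spread. Ranking only among regions of the same place (at a gene end or not) moved all 11, for example Fos from 93.8 to 92.3 in liver and from 21.2 to 10.8 in spleen, Fosb from 16.6 to 13.2, Nfkbia from 26.1 to 23.2, and the upstream Jund region from 48.9 to 50.6 in liver and from 4.28 to 1.85 in thymus. The cause was not tested for any of these changes beyond what each setting does by construction.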

Other observations

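Between 20 and 50 kb from the 10 genes lay 5 further regions, 1 each near Egr1, Ier2, Junb, Jund and Fosl2. All 5 were in all 3 lists, whereas 1 of the 8 regions within 20 kb was. Of all distinct regions, 46.7% were in all 3 lists. The 10 genes had a median of 2 other coding genes within 50 kb, against 3 for all coding genes. This window was among the settings tried, and the pattern was picked out after its values were seen and was not tested.

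Each of the 5 belongs by position to another gene: 4 lie inside Reep2, Cacna1a, Get3 or Pgpep1, and the fifth is 1850 bp from Babam2. The Pgpep1 region, chr8:70649401-70650050, 47688 bp from Jund, had percentiles of 99.7 (liver), 97.6 (spleen) and 64.0 (thymus), above every region within 20 kb of the 10 genes in each list. The Cacna1a region near Ier2 had the largest spread of percentiles between lists among the 5, 82.2 in liver against 0.326 in spleen. These are places within separate lists, and no change in binding is read from them.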
